A study of Mus musculus with 10 samples.

Results

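Efnb2, Sema6a, Slit1, Plxna4 and Robo2, 5 genes of axon guidance, were examined in regions of the histone mark H3K27ac that separated 2 kinds of brain macrophage. A region was taken when its midpoint lay inside one of these genes, or when one of them was the protein-coding gene with the nearest end and that end lay within 100 kb. The rule gave 12 of the 1320 listed regions, 4 of the 428 listed for MDM and 8 of the 892 listed for YSM. Members were thus chosen by their presence in the lists, so the list and position of each region are a description and carry no test.

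The mark had been profiled by CUT&Tag, a method that tethers a transposase to antibody-bound chromatin so that DNA near the mark is tagged for sequencing, in 4 YSM and 4 MDM libraries. All were made from brain parenchymal macrophages of Ms4a3Cre:R26-tdTomato mice that share the treatment DR-3x, a term left unexplained in the labels. Ms4a3-driven Cre labels the progeny of granulocyte-monocyte progenitors with a red reporter. The series title expands MDM as monocyte-derived macrophages, and the labels do not spell out YSM. Strain, sex, age, pooling of animals and whether libraries came from separate mice are not given. The lists hold no value for single libraries and no fold change or p-value for single regions. No error between libraries, depth or level of H3K27ac can therefore be stated for any region, and the regions under a group's name were taken to hold more of the mark in that group. The score deposited with each of the 12 regions was 1, as in 1292 of all 1320, and its meaning is not stated.

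Axon guidance proteins steer growing nerve fibres by contact or by secreted cues. Semaphorins bind plexins, Slits bind Robo receptors and ephrins bind Eph receptors, and ephrins and some semaphorins are themselves anchored in the membrane and can signal into the cell that carries them. The same families act outside the nervous system in blood vessel growth, immune cell adhesion and migration. H3K27ac is found at active promoters and enhancers, and its presence inside a gene does not show that this gene is transcribed.

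The 3 ligand genes had regions of the YSM list and none of the MDM list, whereas the receptors were split. All 7 regions of Efnb2, Sema6a and Slit1 were YSM regions inside the gene. Plxna4, a receptor, had 4 MDM regions inside the gene, and Robo2, the other receptor, had 1 YSM region outside it. In all, 8 of 12 regions (66.7%, exact Clopper-Pearson 95% interval 34.9 to 90.1, counting error only) were in the YSM list, which holds 67.6% of all listed regions. The share over the 5 genes together was thus near that of the lists as a whole. With overlapping regions joined, 7 of 10 groups were YSM groups, against 66.8% of all 1054 groups. None of the 5 genes had regions of both lists, as was so for 693 of the 698 protein-coding genes with a region. Regions of 1 gene are not independent, so the 7 ligand regions stand for 3 genes and the 5 receptor regions for 2. The interval above treats the regions as independent and is no test.

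**Figure D1:**
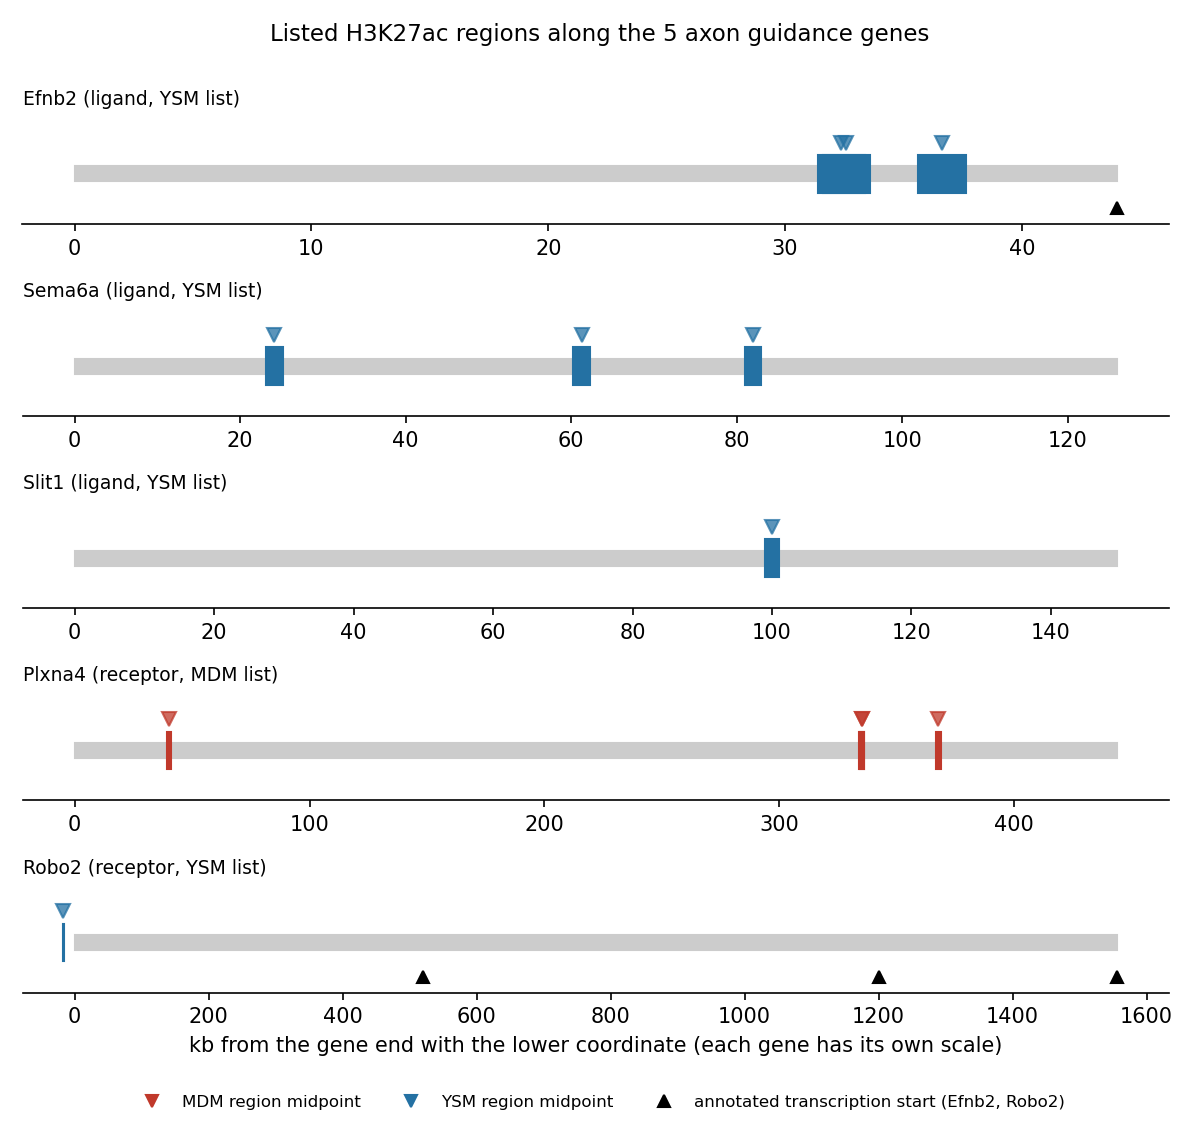
Position of the 12 listed H3K27ac regions along the 5 genes, in kb from the gene end with the lower coordinate, each gene on its own scale. Coloured blocks are the regions drawn to scale with triangles at their midpoints, grey bars are the genes, and black triangles are RefSeq transcription starts, shown for Efnb2 and Robo2. The 3 ligand genes carry blue YSM regions inside the gene, Plxna4 carries red MDM regions, and the Robo2 region lies 16.9 kb outside the gene.

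Transcription starts came from a RefSeq promoter table of GRCm38.p6, the assembly of mm10. The table matched 2 of the 5 genes, Efnb2 with 1 start and Robo2 with 3. Plxna4, Sema6a and Slit1 had no entry, so the distance of their regions to a start is unknown here. Of the 2 matched genes, Efnb2 had its regions within 100 kb of its start, and Robo2 had its region far from any start. A promoter of each of these 2 genes is shown. The 250 bases before each start, on the minus strand and read 5′ to 3′, are given here, at chr8:8661243-8661492 for Efnb2 and chr16:75447294-75447543 for the Robo2 start farthest upstream. Capitals mark matches to any of 7 short motifs on either strand.
Efnb2: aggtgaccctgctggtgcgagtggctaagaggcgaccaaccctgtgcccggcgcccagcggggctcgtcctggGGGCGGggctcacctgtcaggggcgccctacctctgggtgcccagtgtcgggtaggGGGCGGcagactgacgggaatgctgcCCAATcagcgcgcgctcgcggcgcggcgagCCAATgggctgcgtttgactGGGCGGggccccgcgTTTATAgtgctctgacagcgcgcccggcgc
Robo2: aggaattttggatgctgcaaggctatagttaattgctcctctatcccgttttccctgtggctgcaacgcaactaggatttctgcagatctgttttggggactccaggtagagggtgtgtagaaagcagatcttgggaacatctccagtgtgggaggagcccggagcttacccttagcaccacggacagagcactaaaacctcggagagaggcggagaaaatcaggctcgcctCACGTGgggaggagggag
The Efnb2 promoter was 72.0% G and C and held 27 CpG dinucleotides, against medians of 52.4% and 6 over 32851 promoters. These promoters belong to 27025 gene symbols, more than the 21887 protein-coding genes used here, so this background is not limited to protein-coding genes. It held the GC box GGGCGG 3 times, the CCAAT box CCAAT 2 times and the TATA box TATAAA once, read on the other strand as TTTATA from 30 bases before the start. A GC box was present in 32.7% of all promoters, a CCAAT box in 33.8% and a TATA box in 12.4%. The Robo2 promoter was 53.2% G and C with 8 CpG dinucleotides, and its only match was the E-box CACGTG, present in 6.02% of all promoters. The other motifs searched, with no match in either sequence, were the ETS core GGAAGT (19.7% of promoters), the AP-1 motif TGANTCA (6.75%) and the RUNX motif TGTGGT (14.0%). The 2 other Robo2 promoters matched none of the 7. No listed region covered any of these promoters: the nearest Efnb2 region ended 6.33 kb from the promoter window.

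Efnb2 encodes ephrin-B2, a membrane-anchored ligand of Eph receptors known for its part in arterial and lymphatic vessels. The gene spans 44.0 kb, chr8:8617235-8661242, and is the shortest of the 5. Its 3 YSM regions lay at chr8:8648610-8650610, chr8:8648815-8650815 and chr8:8652866-8654866, each 2001 bp long like every listed region. Their midpoints were 11.6, 11.4 and 7.38 kb downstream of the start whose promoter is printed above. The first pair overlapped by 1796 bp, so the 3 regions formed 2 groups. Efnb2 had 6.82 regions per 100 kb of gene, the most of the 5 genes. This rank rests on counting neighbouring regions separately: joined within 10 kb, Efnb2 had 1 group and the longer Sema6a had 3. Beyond the distance limit, Efnb2 was the nearest protein-coding gene of a further pair of YSM regions, the closest to any of the 5 genes that the rule left out, at 165 kb (chr8:8451303-8453303) and 282 kb (chr8:8333744-8335744) beyond the end opposite the start. The nearest MDM region was 2.36 Mb from the gene.

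Sema6a encodes a transmembrane semaphorin that binds class A plexins, among them the product of Plxna4. The gene spans 126 kb, chr18:47245254-47371200. Its 3 YSM regions did not overlap and were spread along the gene, at chr18:47268393-47270393, chr18:47305522-47307522 and chr18:47326213-47328213. They lay 19.2%, 48.6% and 65.1% of the way from the lower-coordinate end, and 24.1, 61.3 and 44.0 kb from the nearer end. Sema6a had 2.38 regions per 100 kb. The next YSM region outside the gene lay 6.12 Mb away, and an MDM region was closer, at 1.15 Mb (chr18:46091841-46093841). Distances to the next region of the same list are given without a background over other genes, so no isolation is read from them. A gene in the YSM list had its nearest MDM region at a median of 3.95 Mb, with a middle range of 1.54 to 6.22 Mb over 466 genes.

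Slit1 encodes a secreted ligand of Robo receptors that repels axons. The gene spans 149 kb, chr19:41597824-41747275, and had 1 YSM region, chr19:41696782-41698782, whose midpoint lay 100.0 kb from the lower-coordinate end and 49.5 kb from the other. This region also overlapped Gm34116, a long noncoding RNA gene, so it cannot be assigned to one of the pair by position. The next YSM region was 3.55 Mb and the nearest MDM region 21.2 Mb from Slit1.

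Plxna4 encodes plexin-A4, a receptor for class 6 semaphorins and, together with neuropilins, for class 3 semaphorins. Among the 5 genes it alone had MDM regions. The gene spans 444 kb, chr6:32144543-32588192. Its 4 regions lay at chr6:32183733-32185733, chr6:32478518-32480518, chr6:32478766-32480766 and chr6:32511164-32513164. The middle pair overlapped by 1753 bp, and the fourth lay 32.4 kb beyond them. The first stood apart, 295 kb from the others and 9.06% of the way from the lower-coordinate end. The fourth also overlapped Plxna4os1, a long noncoding RNA gene. The nearer gene end was 40.2, 109, 108 and 76.0 kb away in the order given, so 2 of the 4 were taken only because they lie inside the gene. Per length, Plxna4 had 0.902 regions per 100 kb, fewer than Efnb2 and Sema6a. By number of regions it was among 6 genes with 4, behind 5 of the 231 genes of the MDM list that had more. The next MDM region outside the gene was 0.661 Mb away and the nearest YSM region 3.30 Mb, against a median of 2.07 Mb to the nearest YSM region over 226 genes of the MDM list.

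Robo2 encodes a receptor for Slit proteins. At 1555 kb, chr16:73891976-75447443, it is the longest of the 5 genes, and no listed region lay inside it. Its 1 YSM region, chr16:73874093-73876093, had its midpoint 16.9 kb outside the lower-coordinate end. The gene's 3 annotated starts are on the minus strand, so this region lies past the 3′ end, 537 kb from the nearest start and 1572 kb from the start whose promoter is printed above. The region was taken only because Robo2 is the protein-coding gene with the nearest end. The next YSM region was 0.960 Mb and the nearest MDM region 6.01 Mb from the gene. Slit1 and Robo2, a ligand and its receptor, were thus both in the YSM list with 1 region each. Sema6a and Plxna4, also a ligand and its receptor, were in opposite lists. The YSM list held a region of 67.6% of all protein-coding genes with a listed region. These pairs are too few to be told apart from that share, and their genes were picked for having regions. Nothing is read from a pair sharing a list or not.

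By place in the gene, 7 of 7 ligand regions and 4 of 5 receptor regions had their midpoint inside. The 11 of 12 regions inside (91.7%) stand beside 58.3% of all listed regions, 50.5% of MDM and 62.1% of YSM regions. The rule itself takes every region inside these genes and the genes are long, so nothing is read from the gap. Ligand regions were 7.38 to 61.3 kb from the nearer gene end with a median of 24.1 kb, and receptor regions 16.9 to 109 kb with a median of 76.0 kb. These ranges overlap, and Plxna4 is 10.1 times as long as Efnb2, which limits how far a region can lie from an end. None of the 12 lay within 1 kb of an end of its gene. Of the 1320 listed regions, 135 lay that near an end of any protein-coding gene, and with only 12 regions nothing is read from this.

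**Figure D2:**
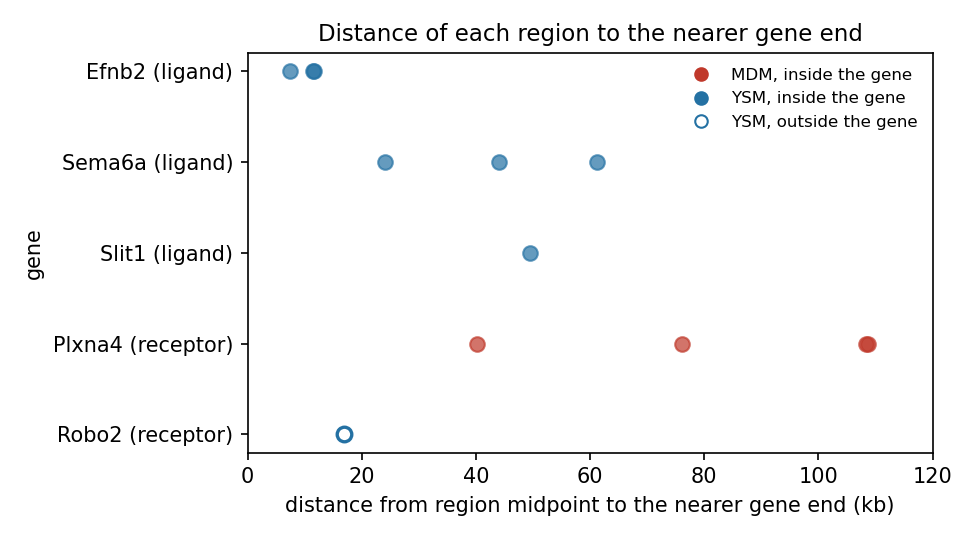
Distance in kb from the midpoint of each of the 12 regions to the nearer end of its gene, 1 row per gene. Filled points are regions inside the gene and the open point is the Robo2 region outside it; the Efnb2 points sit between 7.38 and 11.6 kb and the Plxna4 points between 40.2 and 109 kb.

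Each region name ends in a whole number whose meaning is not stated. It was 4, 4, 1 and 6 for Plxna4, against a median of 4 in the MDM list, and 4 for Robo2, 3 for Slit1, 2, 1 and 2 for Sema6a and 1, 1 and 2 for Efnb2, against a median of 2 in the YSM list. The 2 Efnb2 regions that overlap each other both carry 1, as does one of the overlapping Plxna4 pair.

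All 5 genes are longer than the median protein-coding gene of 17.2 kb, and listed regions were found more often in long genes. Of all 21887 protein-coding genes, 1.06% had an MDM region and 2.16% a YSM region by the same rule. Among the 6007 genes of at least 40 kb these shares were 2.56% and 5.28%, and among the 990 of at least 200 kb, which include Plxna4 and Robo2, 5.86% and 10.3%. Efnb2 and Sema6a were each among 40 YSM genes with 3 regions, and 39 YSM genes had more. Slit1 and Robo2 were among 307 YSM genes with 1 region. The genes most alike in list, number of regions, number inside and length were Rab31 (121 kb, 1 of 24 candidates) for Sema6a, 3425401B19Rik (48.7 kb, 1 of 24) for Efnb2 and Stard13 (391 kb, 1 of 3) for Plxna4. For Slit1 it was Pcdhga5 (147 kb, 1 of 214), one of a cluster of overlapping protocadherin genes that can share a region. For Robo2 it was Zfp536 (456 kb, 1 of 91), which is much shorter and, unlike Robo2, also had 1 MDM region.

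**Figure D3:**
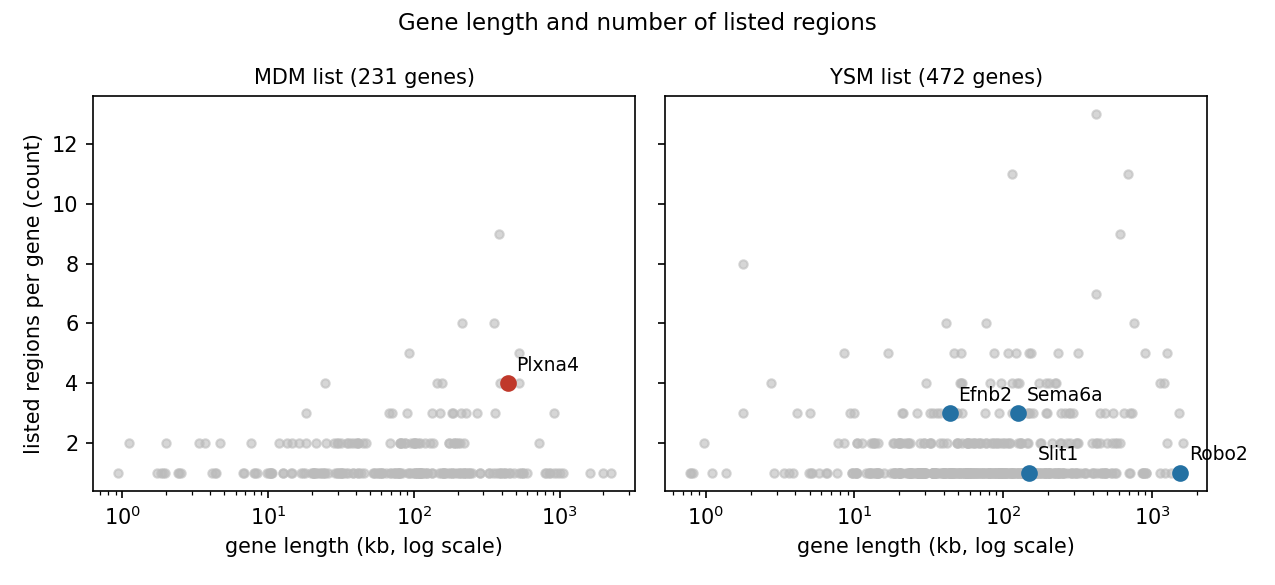
Number of listed regions per gene against gene length in kb (log scale), for the 231 genes with an MDM region and the 472 with a YSM region. Grey points are all such genes and coloured points the 5 axon guidance genes: Plxna4 has 4 MDM regions, Efnb2 and Sema6a have 3 YSM regions and Slit1 and Robo2 have 1.

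Across 94 axon guidance genes the same rule found MDM regions at 3 (3.19%) and YSM regions at 6 (6.38%). The remaining 85 had no listed region. Among the 58 of these genes of at least 40 kb the shares were 5.17% and 10.3%, beside 2.56% and 5.28% of all genes of that length. No test was made of this gap, because the 5 genes were picked for having regions.

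By role, 3 of 40 ligand genes were listed, all for YSM, and they were Efnb2, Sema6a and Slit1. Of all protein-coding genes with a region, 67.6% had one of the YSM list. The 3 ligand genes are too few to be told apart from that share, and all 3 were picked for having a region. Of 35 receptor genes, 3 were listed for MDM and 1 for YSM. The MDM receptors were Plxna4, the Eph receptor gene Epha7 and Neo1, which encodes neogenin, a receptor of netrins and repulsive guidance molecules, and the YSM receptor was Robo2. Of 19 genes of intracellular partners, 2 were listed, both for YSM. The ligand genes had a median length of 36.2 kb and the receptor genes one of 115 kb, and longer genes were listed more often. Ligands and receptors with a region number 7 genes, 5 of which were picked for having one. Guidance receptors outside the 94 genes were not counted. No difference between ligands and receptors is read from these counts.

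The Epha7 region, chr4:28943402-28945402, lay inside the gene, 23.1 kb from an end and 131 kb from the nearest annotated start. The Neo1 region, chr9:58898783-58900783, also lay inside, 25.1 kb from an end and 137 kb from its start. Ablim1, which encodes an actin-binding LIM protein, had 2 YSM regions inside the gene (chr19:57180306-57182306 and chr19:57210879-57212879), 16.3 and 4.15 kb from annotated starts. Mical3, a flavoprotein monooxygenase of the family that acts on actin downstream of plexins, had 2 (chr6:120986253-120988253 and chr6:121085233-121087233), 94.4 and 4.61 kb from them. All 6 regions of these 4 genes lay inside the gene, as did 58.3% of all listed regions.

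**Figure D4:**
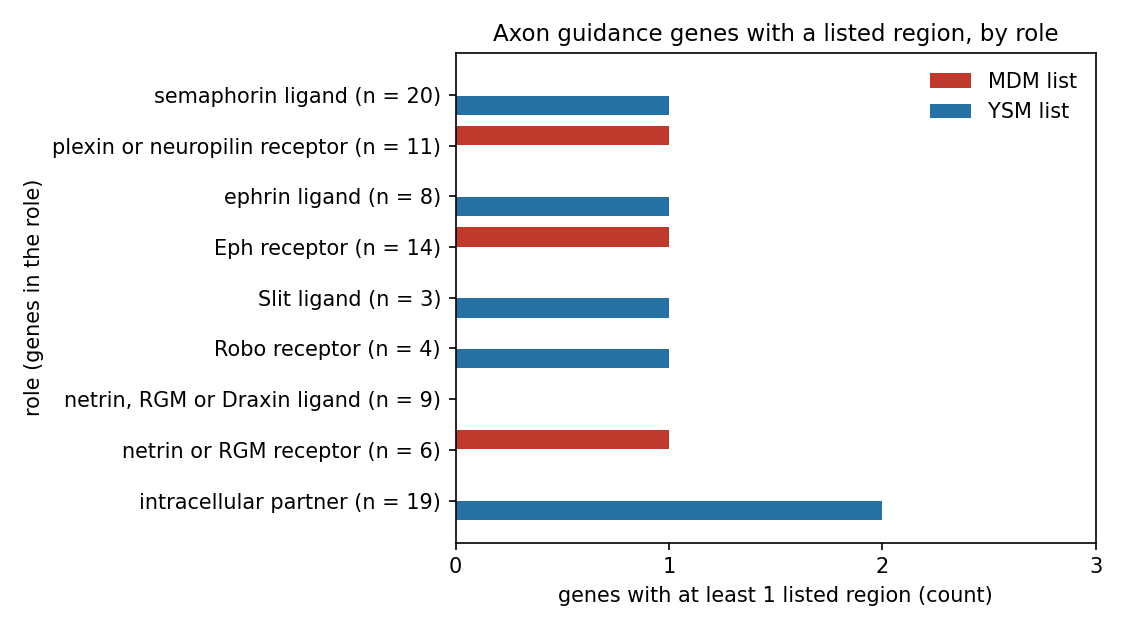
Number of axon guidance genes with at least 1 listed region, by role, with the number of genes in each role in parentheses; red bars are the MDM list and blue bars the YSM list. Each ligand family with a listed gene shows a blue bar, as do Robo receptors and intracellular partners, and the red bars stand at plexins, Eph receptors and netrin receptors.

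Of all protein-coding genes, 3.19% had a region of either list, so a binding partner without one is the usual case. Among plexins and neuropilins, 10 of 11 had none. The nearest region to Plxna2, a further receptor of Sema6a, was a YSM region 0.743 Mb away, and that to the co-receptor gene Nrp1 a YSM region 3.57 Mb away. Sema3a, a ligand for plexin-A4 with Nrp1, had its nearest region, of the YSM list, at 3.55 Mb. No EphB receptor gene had one, the closest being Ephb3 and Ephb6 with MDM regions 0.373 and 0.413 Mb away and Ephb1 with a YSM region 0.480 Mb away. Among all Eph receptor genes without a listed region, Epha4 was closest to one, a YSM region 0.317 Mb away. For Ephb4, the receptor of ephrin-B2 in veins, the nearest region was 5.59 Mb away. Robo1, which also encodes a Slit receptor, had its nearest region 0.828 Mb away, and this was the YSM region taken for Robo2. Slit2 had none within 4.12 Mb. A gene without a listed region may still carry H3K27ac, equally in the groups or below the authors' threshold.

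Because these genes are best known from neurons, markers of other brain cells were counted by the same rule. In the YSM list 2 of 10 neuron markers (Snap25 and Celf4, 5 regions), 2 of 10 oligodendrocyte markers (Mog and Mbp, 2 regions) and 1 of 8 astrocyte markers (Slc1a3, 6 regions) had a region, and in the MDM list none did. Inside the gene lay 0 of 2 Snap25, 1 of 3 Celf4, 0 of 1 Mog, 1 of 1 Mbp and 5 of 6 Slc1a3 regions. The others were assigned only by the nearest gene end within 100 kb. These counts stand beside the 2.16% of all genes with a YSM region and the 1.06% with an MDM region, 5.28% and 2.56% at 40 kb or more. Each marker list is small, at 8 to 10 genes, and the difference between the MDM and YSM lists was not tested. Endothelial markers had a region in neither list, 0 of 8. Of 10 microglia markers, Sall1 had 5 YSM regions and 9 had none, and of 10 monocyte markers none had a region. Of 8 border macrophage markers, Cd163 had 1 MDM region. The lists hold only regions that differed, so a marker equally marked in the groups would be absent from them, and they cannot verify the sorted cell type. Whether other brain cells contributed to the YSM regions of Efnb2, Sema6a, Slit1 and Robo2 was not tested.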

How the data were processed

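H3K27ac CUT&Tag of 4 YSM and 4 MDM libraries was analysed from 2 lists of regions, which come from the authors' DESeq2 comparison, per the file names. The deposited score of each region, a whole number, has no stated meaning and entered no result. The submitters' processing notes name the build mm10 and, in no order and with no role, HOMER, Picard, Bowtie2 2.2.5 and Trimmomatic 0.39. The sources used here give neither the direction nor the threshold of that test. The 2 libraries named for H3K27me3 were not analysed here.

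Starts were shifted to count from 1. Genes were the 21887 protein-coding genes of a RefSeq table of GRCm38.p6, on chromosomes 1 to 19, X and Y. The table has no strand, exons or introns, so a region inside a gene is not placed further. A region belonged to each gene around its midpoint and to the gene with the nearest end within 100 kb. Region sequences were not used here. Assignment was tested on simulated data. Named were the 5 genes with each of their regions, every listed gene of a 94-gene axon guidance list, and per member the gene most alike. Partners and markers with no region were named after seeing their values. The members and lists were chosen with earlier results of these data known. Python 3.11.15, pandas 2.3.3, numpy 2.4.6 and scipy 1.17.1 were used. The interval given is an exact Clopper-Pearson 95% interval that treats regions as independent.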

Additional observations from a re-analysis of the deposited data

How the results depend on the processing

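No paired analysis was possible because no measurement of a single library entered the 2 region lists. Leaving out libraries was likewise not run, and depth is unknown. The 4 MDM regions, all of Plxna4, became 2 when only the gene with the nearest end within 100 kb counted, a setting chosen after seeing the data, because a pair of them lies deeper inside the gene. The 8 YSM regions became 5 with a region name number of 2 or more, which removes 2 of 3 Efnb2 regions and 1 of 3 Sema6a regions. Under the other settings (10 kb or no distance limit, genes of all types, midpoint inside only, regions joined when overlapping or within 10 kb) the counts were 3 to 4 MDM and 6 to 10 YSM regions. Robo2 lost its region within 10 kb and with midpoints inside only, and Efnb2 gained 2 without a limit. Axon guidance genes numbered 3 in the MDM list in every setting run and 5 or 6 in the YSM list. The share of the 12 regions inside a gene was 91.7% by any overlap and 90.0% with overlapping regions joined. Measured to the nearest gene end, the Robo2 region was 16.9 kb away in place of 537 kb to the nearest start.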
